A study of Mus musculus with 12 samples.

Results

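The integrated stress response is described here through 10 of its genes in injured mouse kidney: Atf4, Atf3, Atf5, Ddit3, Ppp1r15a, Trib3, Ddit4, Sesn2, Asns and Chac1. They were taken by symbol, and each matched 1 row in both deposited tables, of 32199 genes in the table of the PAD4 set and 31719 in that of the IL-33 set. Bulk RNA was sequenced from the kidneys of 12 male mice, in 4 groups of 3 separate animals, to study how PAD4, an enzyme that neutrophils use to release extracellular traps, and the cytokine IL-33 bear on ferroptosis and tubular injury. All 4 groups carried the same injury. At 8 weeks of age the mice had 1 kidney removed, and after 3 weeks of recovery and 24 h without water they received furosemide, a loop diuretic, followed 20 min later by iodixanol, an iodinated contrast agent, in the tail vein. Kidneys were taken 24 h after the contrast agent. The PAD4 set holds wild-type C57BL/6 mice and Padi4 knockout mice, and the IL-33 set holds other wild-type C57BL/6 mice and mice labelled Il33 knockout. The labels name no promoter, Cre or exon for either allele, and no uninjured group was analysed here, so the values do not say how far the injury itself moved a gene.

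Cells that meet amino acid shortage, misfolded protein in the endoplasmic reticulum, haem shortage or double-stranded RNA activate kinases that phosphorylate the translation factor eIF2 on its alpha subunit. General translation then falls, while the mRNA of the transcription factor ATF4 is translated more. ATF4 and the factors it works with or induces (CHOP, which Ddit3 encodes, ATF3 and ATF5) switch on genes for amino acid supply, redox balance, restraint of growth signalling and, in lasting stress, cell death. Because ATF4 and ATF5 are controlled largely at translation, the level of their mRNA is not a measure of the activity of the proteins.

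All 10 genes were found in the RefSeq promoter table for GRCm38.p6, which gives 300 bases for each gene start (250 before it and 50 after it). The core of the element that ATF4 binds with C/EBP partners, written TGATGNAA and searched on both strands, was in the windows of 4 of the 10 genes (Atf3, Chac1, Trib3 and Asns) and in 3.97% of the 32851 windows of all genes. The cAMP response element TGACGTCA, also searched on both strands, was in 1 of the 10 (Ppp1r15a) and in 1.79% of all windows. A match is only a description of the letters, and a window without a match says nothing of binding elsewhere. The 4 stretches below show the matches that lie before the gene start, in capitals, on the strand of the gene, since Atf3 and Chac1 were among the genes with the largest falls in the IL-33 set, Ppp1r15a fell in both sets and Asns passed the test in neither. The matches of Atf3 and Chac1 are the reverse complement of the letters searched.
Atf3, chr1:191183390-191183489, minus strand, match beginning 110 bases before the start: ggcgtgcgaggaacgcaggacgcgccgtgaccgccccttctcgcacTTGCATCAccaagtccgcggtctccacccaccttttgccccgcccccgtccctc
Chac1, chr2:119351003-119351102, plus strand, match beginning 193 bases before the start: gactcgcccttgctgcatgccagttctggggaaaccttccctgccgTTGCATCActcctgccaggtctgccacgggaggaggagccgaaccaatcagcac
Asns, chr6:7693214-7693243, minus strand, match beginning 23 bases before the start: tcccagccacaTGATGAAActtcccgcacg
Ppp1r15a, chr7:45526269-45526326, minus strand, match beginning 12 bases before the start: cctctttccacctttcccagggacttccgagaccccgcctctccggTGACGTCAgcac
The match of Trib3 begins 15 bases after the start. All starts given here are those of RefSeq. GENCODE places the start of Asns further upstream, so the match of Asns may lie after that start.

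Values are FPKM (fragments per kilobase of transcript, scaled to the mapped fragments of the library), from which sequencing depth is unknown. Library sums of FPKM ran from 700601 to 812981 for the PAD4 set and from 385124 to 420279 for the IL-33 set, so no level was compared across the sets. The targeted gene Padi4 read 0.704, 1.06 and 1.67 FPKM for wild-type kidneys and 0.217, 0.497 and 0.187 FPKM for PAD4 knockout kidneys (-0.71 ± 0.19 SE on the log2(FPKM + 1) scale, limma adjusted p = 0.0147). Of 12 neutrophil markers tested, 7 were lower in the same knockout, so the fall of Padi4 cannot be told apart from fewer neutrophils. That fall did not pass when wild-type library 3 (adjusted p = 0.0797) or knockout library 3 (0.0548) was left out, when low genes were kept (0.162), without limma's trend (0.0579) or with a score of colon and lung markers as a covariate (1.00). Il33 read 1.71, 1.13 and 3.64 FPKM for wild-type kidneys and 1.14, 0.616 and 1.02 FPKM for kidneys labelled IL-33 knockout, a difference short of the threshold (-0.65 ± 0.28 SE, limma adjusted p = 0.099), which it passed only when wild-type library 2 was left out (0.0348), under quantile normalization (0.0395) and in a fit blocked on replicate number (0.0408). In the PAD4 knockout Il33 was lower too, and there the fall passed (-1.15 ± 0.23 SE, limma adjusted p = 0.00208). The transcript level therefore does not settle the label of IL-33 knockout.

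In the kidneys labelled IL-33 knockout, 9 of the 10 stress response genes were lower than in their wild type. Asns did not pass the test, and none was higher. The falls ran from Atf3, at 4.88% of the wild-type mean, to Sesn2, at 64.9%. In the PAD4 knockout 2 of the 10 were lower (Atf3 and Ppp1r15a), 1 was higher (Atf5) and 7 did not pass. A gene passed where its adjusted p from limma was under 0.05, with Benjamini-Hochberg adjustment over 14513 genes in the IL-33 set and 13986 in the PAD4 set. Of all genes tested, 16.8% were called lower and 22.2% higher in the IL-33 set, and 8.79% lower and 8.89% higher in the PAD4 set. The median change of the 10 genes on the log2(FPKM + 1) scale was -1.49 in the IL-33 set, where the median of all genes was 0.044, and -0.23 in the PAD4 set, where it was 0.016. In 9 of the 10 genes every knockout library lay below every wild-type library of the IL-33 set, as in 24.3% of all genes. That order held for 6 of the 10, against 15.8% of all genes, of the PAD4 set, and the reverse order held for 1, against 17.2%. An exact permutation test with 3 libraries against 3 cannot go below p = 0.1. In bulk tissue a fall in the number of cells of a type cannot be told apart from less RNA per cell, and markers of other cell types and tissues moved with genotype as well.

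**Figure D1:**
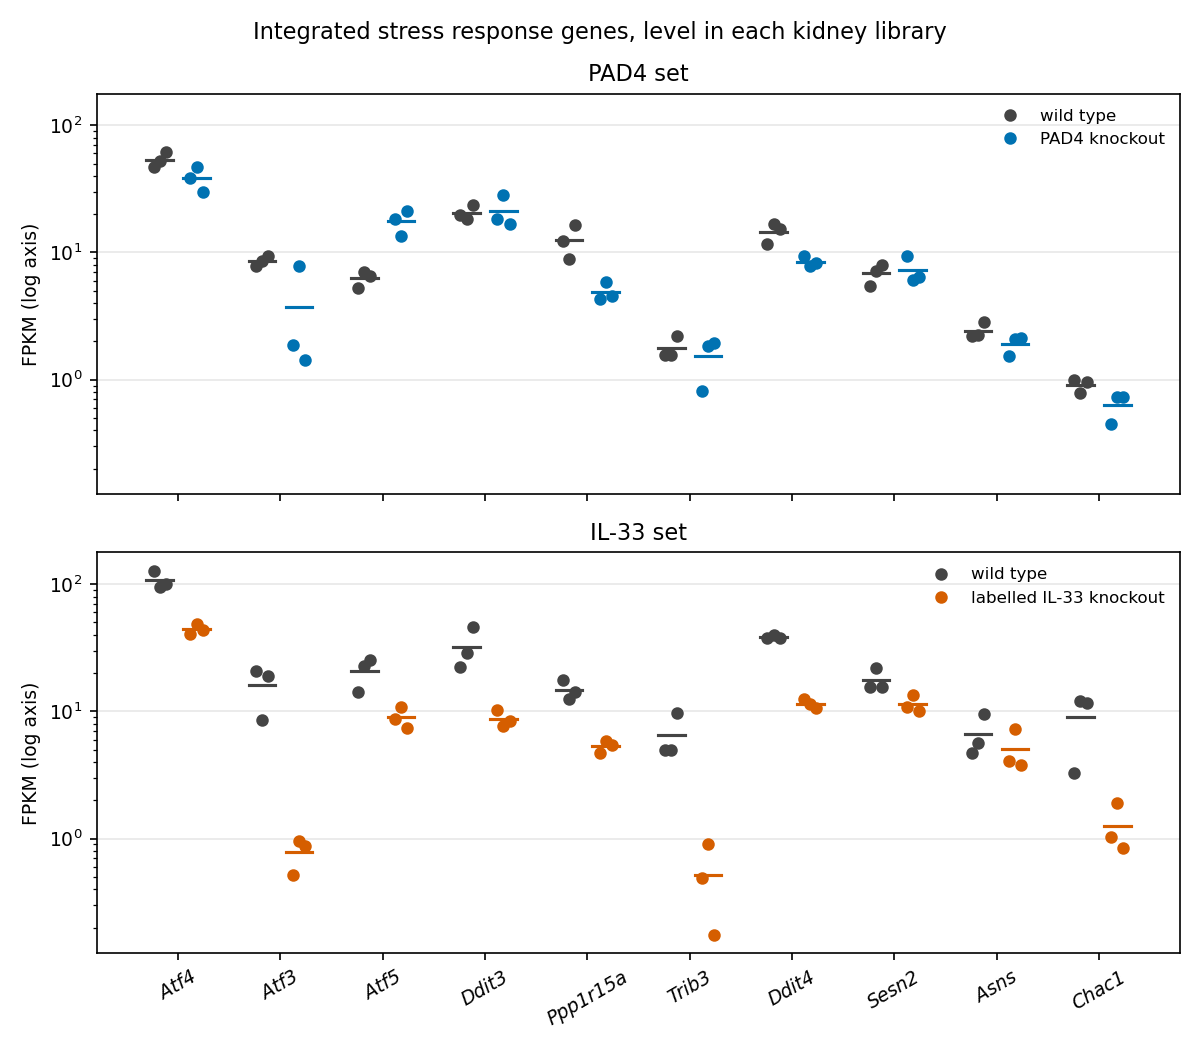
Level of each gene in each library, in FPKM on a log axis, for the PAD4 set (top) and the IL-33 set (bottom); points are libraries and bars are group means. In the IL-33 set the knockout points lie below all wild-type points for every gene but Asns, and in the PAD4 set Atf5 is the gene whose knockout points lie above.

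Atf4 (ENSMUSG00000042406), the transcription factor at the centre of the response, had the highest level of the 10 genes in each of the 12 libraries. Atf4 measured 128, 94.5 and 100 FPKM in the wild-type kidneys of the IL-33 set and 40.3, 48.5 and 43.4 FPKM in its knockout kidneys. The groups were well apart, with a change of -1.26 ± 0.13 (SE, limma adjusted p = 0.000385), and the knockout mean was 41.0% of wild type (108 ± 17.8 against 44.1 ± 4.17 FPKM, SD, n = 3 each). Atf4 levels of the PAD4 set were 47.2, 51.9 and 61.6 FPKM for wild-type kidneys and 38.5, 46.7 and 30.1 FPKM for knockout kidneys. These groups did not overlap, but PAD4 knockout library 2 came within 1 FPKM of the lowest wild-type library, and the change of -0.48 ± 0.31 (SE) did not pass (adjusted p = 0.324).

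Atf3 (ENSMUSG00000026628), a repressor and activator induced early in many kinds of stress and in injured renal tubule, gave the largest fall of the 10 in the IL-33 set. Its wild-type libraries held 20.6, 8.61 and 18.9 FPKM and its knockout libraries 0.517, 0.957 and 0.870 FPKM. All knockout libraries were under 1 FPKM, so that the wild-type mean was 20.5-fold higher (16.0 ± 6.48 against 0.782 ± 0.233 FPKM). The limma change was -3.18 ± 0.30 (SE, adjusted p = 0.000243). Atf3 measured 7.88, 8.65 and 9.35 FPKM in the wild-type kidneys of the PAD4 set and 1.89, 7.87 and 1.43 FPKM in its knockout kidneys. Knockout library 2 stood with the wild type, lying just under its lowest library, and the other two were far below. The fall of 2.31-fold passed (-1.28 ± 0.36 SE, adjusted p = 0.0184). The fall no longer passed when wild-type library 1 (adjusted p = 0.123), wild-type library 3 (0.103) or knockout library 3 (0.0786) was left out, under median-of-ratios scaling (0.0831) and quantile normalization (0.0798), or unfiltered (0.243).

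Atf5 (ENSMUSG00000038539), which ATF4 induces and which is tied to mitochondrial protein stress, moved in opposite directions in the sets. Atf5 measured 5.26, 7.05 and 6.50 FPKM in the wild-type kidneys of the PAD4 set and 18.3, 13.4 and 21.1 FPKM in its knockout kidneys. Every knockout library was higher, by 2.81-fold on the means (6.27 ± 0.917 against 17.6 ± 3.90 FPKM), and the rise of 1.34 ± 0.28 (SE) had an adjusted p of 0.00287. Without a filter on level the rise did not pass (adjusted p = 0.0791). Atf5 levels of the IL-33 set were 14.3, 22.8 and 25.3 FPKM for wild-type kidneys and 8.73, 10.8 and 7.46 FPKM for knockout kidneys. Every knockout library was lower, by 2.31-fold on the means (-1.10 ± 0.22 SE, adjusted p = 0.006). Atf5 overlaps Nup62, a nuclear pore gene on the opposite strand whose mean went from 4.71 to 2.64 FPKM in the PAD4 set and from 9.70 to 8.14 FPKM in the IL-33 set. The libraries were strand-specific, but whether the authors' quantification used strand is not given in the sources used here.

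Ddit3 (ENSMUSG00000025408) encodes CHOP, the factor most often linked to death of stressed cells. Ddit3 measured 22.3, 28.8 and 45.8 FPKM in the wild-type kidneys of the IL-33 set and 10.2, 7.68 and 8.46 FPKM in its knockout kidneys. The groups were apart and the fall was 3.68-fold (-1.71 ± 0.24 SE, adjusted p = 0.00132). Ddit3 levels of the PAD4 set were 19.5, 18.2 and 23.6 FPKM for wild-type kidneys and 18.5, 28.4 and 16.7 FPKM for knockout kidneys. The groups overlapped, knockout library 2 was the highest of the 6 libraries, and the change was 0.02 ± 0.30 (SE, adjusted p = 0.976). Ddit3 overlaps the methionyl-tRNA synthetase gene Mars1 on the opposite strand, which went from 5.56 to 7.33 FPKM in the PAD4 set and from 14.8 to 15.6 FPKM in the IL-33 set. On the same strand GENCODE has a further Ddit3 entry (ENSMUSG00000116429) that overlaps it and has no values in either set.

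The feedback genes were Ppp1r15a and Trib3. Ppp1r15a (ENSMUSG00000040435) encodes GADD34, the subunit that directs protein phosphatase 1 to eIF2 and so ends the response, and it was lower in both knockouts. Ppp1r15a measured 12.4, 8.87 and 16.4 FPKM in the wild-type kidneys of the PAD4 set and 4.29, 5.83 and 4.52 FPKM in its knockout kidneys. Ppp1r15a levels of the IL-33 set were 17.6, 12.6 and 14.2 FPKM for wild-type kidneys and 4.73, 5.84 and 5.42 FPKM for knockout kidneys. No knockout library reached a wild-type library in either set, and the falls were of like size, 2.57-fold (-1.18 ± 0.28 SE, limma adjusted p = 0.00675) and 2.77-fold (-1.31 ± 0.14 SE, adjusted p = 0.000404). The PAD4 set fall did not pass when wild-type library 1 was left out (adjusted p = 0.0504) or when low genes were kept (0.111). Ppp1r15a overlaps Tulp2 on the opposite strand, whose group means were under 0.1 FPKM.

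Trib3 (ENSMUSG00000032715) encodes a pseudokinase that CHOP and ATF4 induce and that restrains ATF4 and the kinase AKT. Trib3 measured 5.00, 4.96 and 9.76 FPKM in the wild-type kidneys of the IL-33 set and 0.487, 0.900 and 0.174 FPKM in its knockout kidneys. Every knockout library was under 1 FPKM, a 12.6-fold lower mean (6.57 ± 2.76 against 0.520 ± 0.364 FPKM), and the change was -2.29 ± 0.27 (SE, adjusted p = 0.000632). Trib3 levels of the PAD4 set were 1.56, 1.56 and 2.19 FPKM for wild-type kidneys and 0.818, 1.83 and 1.93 FPKM for knockout kidneys. The groups overlapped, with only knockout library 1 below the wild type, and the test was not passed (-0.16 ± 0.22 SE, adjusted p = 0.694).

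Ddit4 and Sesn2 encode REDD1 and Sestrin 2, stress-induced inhibitors of the growth kinase complex mTORC1. Ddit4 (ENSMUSG00000020108) had the smallest SE of the 10 genes in the IL-33 set, with 38.0, 39.9 and 37.7 FPKM for wild-type kidneys and 12.5, 11.4 and 10.6 FPKM for knockout kidneys. The gap between the groups was far wider than the spread within them, and the fall of 3.35-fold (-1.66 ± 0.09 SE) had the lowest adjusted p of the 10 (3.02e-05). Ddit4 measured 11.6, 16.9 and 15.2 FPKM in the wild-type kidneys of the PAD4 set and 9.37, 7.82 and 8.19 FPKM in its knockout kidneys. These groups did not overlap either, but the change of -0.71 ± 0.27 (SE) did not pass (adjusted p = 0.0819). It did pass under median-of-ratios scaling (0.02), quantile normalization (0.0128), a fit with no mean-variance trend (0.0454) and array weights (0.00111).

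Sesn2 (ENSMUSG00000028893) measured 15.5, 22.0 and 15.6 FPKM in the wild-type kidneys of the IL-33 set and 10.8, 13.6 and 10.1 FPKM in its knockout kidneys. The groups were apart by a narrow margin, and the fall of 1.54-fold (-0.57 ± 0.16 SE, adjusted p = 0.0278) was the smallest of the 9 that passed. That fall did not pass when knockout library 1 (adjusted p = 0.0904) or 3 (0.101) was left out, or when low genes were kept (0.0757). Sesn2 measured 5.49, 7.21 and 8.02 FPKM in the wild-type kidneys of the PAD4 set and 9.44, 6.10 and 6.43 FPKM in its knockout kidneys. The groups overlapped, and the change was 0.07 ± 0.27 (SE, adjusted p = 0.908).

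Asns (ENSMUSG00000029752), asparagine synthetase and a classic target of ATF4 in amino acid shortage, passed the test in neither set. Its levels of the IL-33 set were 4.72, 5.63 and 9.51 FPKM for wild-type kidneys and 4.04, 7.22 and 3.80 FPKM for knockout kidneys. Knockout library 2 was above 2 of the wild-type libraries, and the change was -0.33 ± 0.28 (SE, adjusted p = 0.372). Asns measured 2.19, 2.26 and 2.84 FPKM in the wild-type kidneys of the PAD4 set and 1.54, 2.07 and 2.13 FPKM in its knockout kidneys. The groups did not overlap, but they differed by little (-0.23 ± 0.21 SE, adjusted p = 0.497).

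Chac1 (ENSMUSG00000027313) encodes a gamma-glutamylcyclotransferase that breaks down glutathione, and its transcript is often used as a readout of ferroptosis inducers. Chac1 measured 3.29, 12.1 and 11.6 FPKM in the wild-type kidneys of the IL-33 set and 1.03, 1.90 and 0.851 FPKM in its knockout kidneys. Wild-type library 1 was nearer to the knockout than to the other wild-type libraries, but the groups did not overlap. The mean was 7.14-fold lower in the knockout (9.01 ± 4.96 against 1.26 ± 0.562 FPKM), with a change of -2.01 ± 0.42 (SE, adjusted p = 0.00779). Chac1 was under 1 FPKM in all libraries of the PAD4 set, with 0.992, 0.790 and 0.961 FPKM for wild-type kidneys and 0.451, 0.725 and 0.730 FPKM for knockout kidneys. The groups did not overlap, and the test was not passed (-0.23 ± 0.17 SE, adjusted p = 0.400), on a scale that understates changes at such levels.

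Kidney epithelial markers were present in every library, and those of several other cell types and tissues moved with genotype. Of 20 colon epithelium markers, 16 were lower in the PAD4 knockout and 2 (Guca2b and Mep1a, which kidney also expresses) were higher. Their sum was 939 to 1458 FPKM in wild type and 584 to 673 FPKM in the knockout. Their median was 23.1 to 37.4 FPKM in wild type and 4.11 to 21.5 FPKM in the knockout. Of 11 lung epithelium markers tested, 9 were lower and 1 (Napsa, also a kidney gene) was higher. The sums of the 12 lung markers overlapped, at 477 to 1017 FPKM against 414 to 921 FPKM. Their medians did not, at 7.59 to 17.6 FPKM against 1.23 to 5.76 FPKM. Of 10 smooth muscle markers, 9 were lower (433 to 922 FPKM against 83.2 to 301 FPKM). Neutrophil markers were lower for 7 of 12 (63.1 to 190 FPKM against 11.8 to 68.8 FPKM) and macrophage markers for 5 of 9 (51.2 to 83.6 FPKM against 29.3 to 51.7 FPKM). Proximal tubule markers were higher for 12 of 14 (sums of 4903 to 8153 FPKM against 9892 to 25167 FPKM), thick ascending limb markers for 3 of 8 (56.6 to 176 FPKM against 96.8 to 596 FPKM) and collecting duct markers for 3 of 9 (135 to 204 FPKM against 159 to 443 FPKM). Medians were 3.61 to 5.85 FPKM against 8.18 to 18.0 FPKM for proximal tubule and 1.48 to 4.16 FPKM against 2.22 to 20.6 FPKM for thick ascending limb. In wild type these medians lay below those of the colon, lung and smooth muscle lists (26.6 to 55.1 FPKM for smooth muscle). Podocyte markers passed limma's test for 0 of 4, with 1 at an unadjusted p under 0.05 (4.78 to 10.5 FPKM against 3.43 to 5.19 FPKM).

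For the IL-33 set only 8 of 20 colon and 3 of 12 lung markers reached the tested level. The median colon marker ran from 0.0551 to 1.47 FPKM across wild-type libraries and from 0.133 to 0.259 FPKM across knockout libraries, while the sum of the list, which genes shared with kidney dominate, was 569 to 732 FPKM against 716 to 820 FPKM. The lung sum was 380 to 606 FPKM against 821 to 1093 FPKM, of which Napsa alone made up 375, 603 and 596 FPKM against 819, 1091 and 939 FPKM. The colon goblet-cell mucin Muc2 lay between 0 and 0.0265 FPKM and the lung surfactant gene Sftpb between 0 and 0.0262 FPKM in its 6 libraries. Of the tested colon markers, Cdhr5, Guca2b and Mep1a were higher in the knockout, and Krt20 and Lgals4 were lower. Krt20, which is also an injury gene of the renal tubule, measured 349, 56.1 and 227 FPKM against 0.366, 0.359 and 0.239 FPKM, and Lgals4, which encodes a galectin, 18.8, 39.1 and 20.5 FPKM against 3.26, 4.02 and 3.91 FPKM. Proximal tubule markers were higher for 11 of 15 and lower for 1 (medians of 47.1 to 74.2 FPKM against 148 to 194 FPKM, with sums of 12670 to 17248 FPKM against 11280 to 14112 FPKM that lean the other way), and thick ascending limb markers were higher for 7 of 8 (sums of 1499 to 2196 FPKM against 2794 to 3732 FPKM). Collecting duct markers were higher for 4 of 9 (318 to 653 FPKM against 625 to 734 FPKM), podocyte markers for 3 of 6 (39.2 to 62.1 FPKM against 56.8 to 73.9 FPKM) and smooth muscle markers for 1 of 6 (49.3 to 70.0 FPKM against 72.8 to 84.1 FPKM). Macrophage markers were higher for 5 of 8 and lower for 2 (medians of 1.89 to 3.22 FPKM against 4.24 to 4.38 FPKM). Their sums, 110 to 164 FPKM against 67.1 to 73.2 FPKM, lean the other way. Neutrophil markers were lower for 1 of 5 (sums of 3.60 to 10.0 FPKM against 5.48 to 8.05 FPKM). The part of these shifts in the changes of the stress response genes was not tested.

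Both sets of changes were also fitted with a score of the colon and lung markers as a covariate. In the IL-33 set the score averaged 24 markers, among them Krt20, which is also an injury gene of the renal tubule (-6.97 ± 0.58 SE). The centred score there ran from 0.0929 to 0.256 in wild type and from -0.195 to -0.0989 in the knockout. A fall of that size in Krt20, averaged over 24 markers, makes up most of this difference between the group means. In the IL-33 set the score therefore mainly follows Krt20 and is not a measure of colon and lung material. Score values did not overlap between genotypes in either set, so the score and the genotype cannot be told apart in that fit. It called 0 of the 10 genes by limma in the PAD4 set, with 0 at an unadjusted p under 0.05, and 1 (Ddit4, adjusted p = 0.0409) in the IL-33 set, with 5 at an unadjusted p under 0.05.

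The changes differed between the sets for 6 of the 10 genes. The difference, the change in the IL-33 set minus that in the PAD4 set, was tested by limma over all 12 libraries and 13010 genes, and 6.23% of all genes tested were called with a lower value in the IL-33 set. Atf5 gave the largest difference (-2.44 ± 0.32 SE, adjusted p = 0.000547), with opposite directions in the sets. The other five had the lower change in the IL-33 set: Trib3 (-2.13 ± 0.36, adjusted p = 0.00175), Atf3 (-1.90 ± 0.55, 0.0368), Chac1 (-1.78 ± 0.46, 0.0194), Ddit3 (-1.74 ± 0.36, 0.00653) and Ddit4 (-0.96 ± 0.24, 0.0172). For Atf4 (-0.78 ± 0.29, adjusted p = 0.0993) and Sesn2 (-0.64 ± 0.29, 0.175) the difference did not pass, nor did it for Ppp1r15a (-0.13 ± 0.29, 0.811) and Asns (-0.10 ± 0.33, 0.881). The median difference was -1.35 for the 10 genes and -0.023 for all genes. Without knockout library 3 of the IL-33 set only 3 of the 10 were called, those of Ddit4 (0.0621) and Chac1 (0.051) being lost. That of Atf3 was lost when any 1 of 8 libraries was left out (adjusted p of 0.0556 to 0.0842). The sets differ in the deleted gene and in the batch the labels give them (1 and 2). The share of FPKM from mitochondrial genes differs too (52.0% to 60.0% in the PAD4 set against 24.1% to 29.2%). So do the colon and lung markers that reached the tested level (20 of 20 and 11 of 12 against 8 of 20 and 3 of 12). These differences cannot be told apart.

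**Figure D2:**
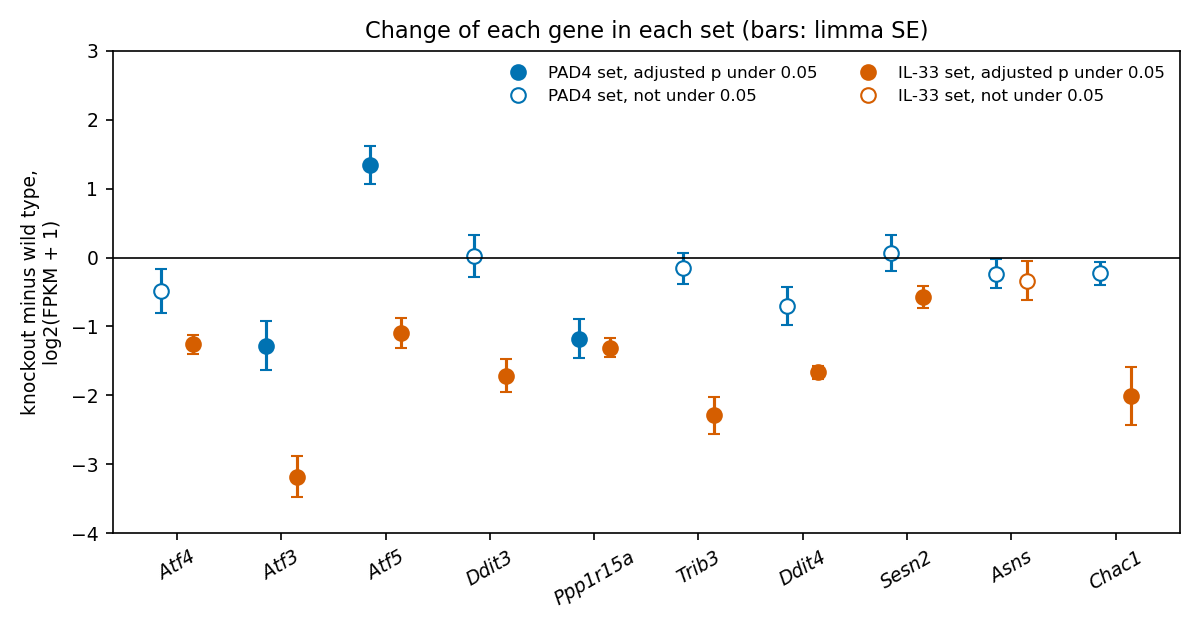
Change of each gene (knockout minus wild type, log2(FPKM + 1) scale) in the PAD4 set and the IL-33 set, with limma's standard error as bars and filled points where the adjusted p was under 0.05. Ppp1r15a has nearly the same change in both sets (-1.18 and -1.31), while Atf5 lies on opposite sides of 0 (1.34 and -1.10).

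To compare libraries over the 10 genes together, each gene was centred on its mean in its table and scaled to unit SD, and the 10 were averaged in each library. The IL-33 set had averages of 0.551, 0.803 and 1.06 SD units for wild-type kidneys and -0.902, -0.510 and -1.003 for knockout kidneys, with no overlap. The PAD4 set had 0.0228, 0.199 and 0.852 for wild-type kidneys and -0.651, 0.0549 and -0.476 for knockout kidneys. There knockout library 2 lay above wild-type library 1, and it was the knockout library with the highest Atf4, Atf3, Ddit3 and Ppp1r15a. It was also the knockout library with the lowest Ddit4, Sesn2 and Atf5, and lay between the others for Trib3, Asns and Chac1. Over the 12 libraries, Pearson's r of each gene with the average, which contains that gene, was highest for Atf4 (0.888), Ppp1r15a (0.886) and Atf3 (0.879) and lowest for Sesn2 (0.491) and Atf5 (0.319). These libraries share their genotype groups, so r is a description only.

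**Figure D3:**
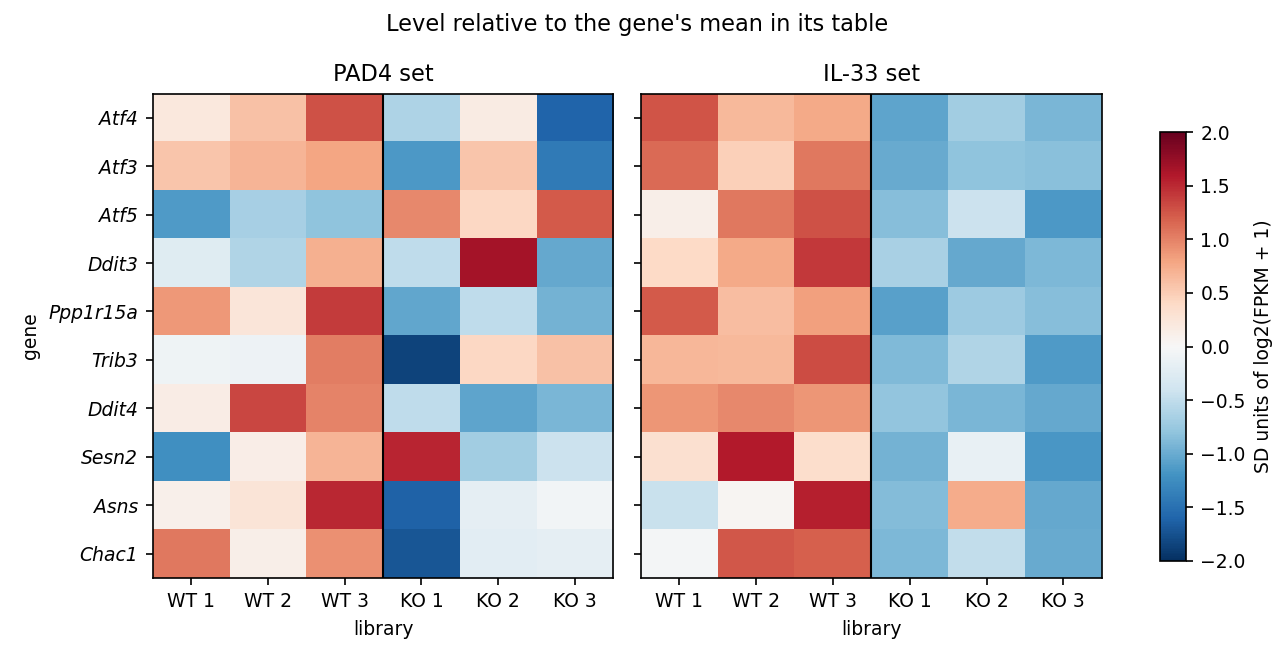
Level of each gene in each library relative to its mean in its own table, in SD units of log2(FPKM + 1), with wild type (WT) left and knockout (KO) right of the line in each panel. All genes but Asns lie below 0 in all knockout libraries of the IL-33 set, and in the PAD4 set Atf5 is above 0 in all knockout libraries and KO 2 is mixed.

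The kinases and factors upstream of ATF4 changed little at the mRNA level. The counts of this and the lists below are to be read beside the shares of all genes tested. Those were 16.8% lower and 22.2% higher in the IL-33 set, and 8.79% lower and 8.89% higher in the PAD4 set. Of 14 genes of the eIF2 kinases, eIF2, its exchange factor eIF2B and related factors, limma called 0 in the PAD4 set (2 at an unadjusted p under 0.05), and the lowest p values were those of Eif2ak2, which encodes the double-stranded RNA kinase PKR (-0.46 ± 0.21 SE, adjusted p = 0.138), and Eif2s2, the beta subunit of eIF2 (-0.54 ± 0.25, 0.154). Quantile normalization gave 3 and median-of-ratios scaling 4 lower calls there. In the IL-33 set 2 were lower and 1 was higher. Eif2s2 fell by 0.56 (± 0.10 SE, adjusted p = 0.00437) and the eIF2B subunit gene Eif2b3 fell by 0.49 (± 0.12, 0.017), while Eif2ak1, which encodes the haem-regulated kinase HRI, rose by 0.36 (± 0.11, 0.0305). The rise of Eif2ak1 did not pass when any 1 of the knockout libraries was left out (adjusted p = 0.118, 0.0739 and 0.0983), under median-of-ratios scaling (0.0572), when low genes were kept (0.0501) or in a fit blocked on replicate number (0.0599), and the fall of Eif2b3 did not pass without knockout library 1 (0.0774) or 2 (0.0672). Eif2ak3 (PERK, the kinase of endoplasmic reticulum stress) measured 5.63, 5.25 and 6.92 FPKM in the wild-type kidneys of that set and 7.68, 7.28 and 6.87 FPKM in its knockout kidneys, which overlapped (adjusted p = 0.122). The phosphorylation that sets the activity of these kinases is not measured by RNA.

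Of 15 genes of amino acid and one-carbon synthesis, 13 were tested. In the IL-33 set 3 of them were lower and 4 higher, and in the PAD4 set 2 were higher and 0 lower. The serine synthesis gene Psat1 (-1.80 ± 0.14 SE, limma adjusted p = 0.000101) and the mitochondrial folate gene Mthfd1l (-1.40 ± 0.15, 0.000487) fell in the IL-33 set. The mitochondrial serine hydroxymethyltransferase gene Shmt2 rose in both sets (1.81 ± 0.33, 0.00115, and 1.16 ± 0.19, 0.00288), as did the cysteine synthesis gene Cth (1.43 ± 0.36, 0.00912, and 1.76 ± 0.19, 0.000398), giving the PAD4 set first. The rise of Cth in the PAD4 set did not pass without wild-type library 1 (0.109) or 3 (0.0582) or under median-of-ratios scaling (0.0558).

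Of 9 amino acid transporter genes 7 were tested, and 4 were lower and 0 higher in the IL-33 set, against 2 lower and 1 higher in the PAD4 set. Slc3a2, the heavy chain shared by several exchangers including the cystine transporter, fell in both sets (-1.14 ± 0.32 SE, limma adjusted p = 0.0192, in the PAD4 set and -1.19 ± 0.15, 0.000776, in the IL-33 set). The leucine exchanger gene Slc7a5 fell (-0.78 ± 0.23, 0.0234) and the neutral amino acid transporter gene Slc1a4 rose (0.82 ± 0.22, 0.0146) in the PAD4 set. That rise of Slc1a4 did not pass without wild-type library 1 (0.0652) or 2 (0.0571), without knockout library 1 (0.0639) or in a fit blocked on replicate number (0.0593). The glutamine transporter genes Slc1a5 (-0.86 ± 0.11, 0.000916) and Slc38a2 (-0.62 ± 0.17, 0.0228) and the glycine transporter gene Slc6a9 (-0.56 ± 0.18, 0.0384) fell in the IL-33 set. Neither Slc38a2 (0.0657 and 0.0633) nor Slc6a9 (0.108 and 0.133) passed without knockout library 1 or 3, and neither passed without 1 of the wild-type libraries, library 3 for Slc38a2 (0.0648) and library 2 for Slc6a9 (0.0699). Slc7a11, the cystine transporter subunit whose loss of function permits ferroptosis, was under the tested level in both sets, at 0.562, 0.375 and 0.947 FPKM in wild type and under 0.03 FPKM in all 3 knockout libraries of the IL-33 set.

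Of 14 genes of aminoacyl-tRNA synthetases and the tRNA exporter Xpot, 3 fell and 0 rose in the IL-33 set: Gars1 (-0.54 ± 0.10 SE, limma adjusted p = 0.00422), Vars1 (-0.58 ± 0.14, 0.0143) and Sars1 (-0.50 ± 0.13, 0.0218), for glycine, valine and serine. Without knockout library 1 or 3, Vars1 (0.0515 and 0.0523) and Sars1 (0.073 and 0.0581) did not pass, nor did Sars1 without wild-type library 1 (0.0554) or 2 (0.0552). The PAD4 set had 0 calls by limma, with 0 at an unadjusted p under 0.05, and the lowest p values were those of Cars1 (-0.37 ± 0.23, adjusted p = 0.29) and Xpot (0.40 ± 0.25, 0.301). The median change of the list was -0.081 in the IL-33 set and -0.0090 in the PAD4 set. Among all genes tested in the IL-33 set, 16.8% were called lower, so 3 of 14 is near that share.

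Of a mixed list of 19 other ATF4 targets, 6 were lower and 2 higher in the IL-33 set, and 3 of the 18 tested were lower and 0 higher in the PAD4 set. Gdf15, a secreted stress cytokine, measured 202, 146 and 121 FPKM in the wild-type kidneys of the IL-33 set and 4.16, 7.01 and 7.37 FPKM in its knockout kidneys. The groups were far apart, with a change of -4.45 ± 0.24 (SE, limma adjusted p = 2.64e-05), larger than that of any of the 10 genes. Gdf15 measured 50.5, 26.5 and 59.6 FPKM in the wild-type kidneys of the PAD4 set and 20.8, 28.8 and 8.87 FPKM in its knockout kidneys. These groups overlapped, and the fall passed (-1.25 ± 0.40, 0.0344). Cebpb, which encodes a partner of ATF4, fell in both sets (-1.11 ± 0.31, 0.0161, in the PAD4 set and -2.26 ± 0.17, 0.000103, in the IL-33 set). Eif4ebp1, a repressor of translation (-1.92 ± 0.11, 3.71e-05), and Sqstm1, an autophagy receptor (-1.64 ± 0.18, 0.000421), fell in the IL-33 set, and Bcl2l11, which encodes the cell death protein BIM, fell in the PAD4 set (-0.51 ± 0.17, 0.0418). The falls of these targets and of the transporter genes in the PAD4 set did not pass when wild-type library 1, wild-type library 3 or knockout library 3 was left out. Without knockout library 1, Bcl2l11 (limma adjusted p = 0.128) and Slc7a5 (0.0957) did not pass either, nor did Bcl2l11 (0.0974) and Cebpb (0.0556) without wild-type library 2. Gdf15 also failed under median-of-ratios scaling (0.0804) and quantile normalization (0.0541). Some of these falls were lost under further settings as well.

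Genes of the other branches of the unfolded protein response, run by XBP1 and ATF6, were mixed. Of 15, 5 were higher and 2 lower in the IL-33 set. The chaperone gene Calr (1.48 ± 0.14 SE, limma adjusted p = 0.000286) and the co-chaperone gene Dnajc3 (0.68 ± 0.09, 0.000953) rose, while Xbp1 (-0.91 ± 0.09, 0.00028) and its target Dnajb9 (-0.73 ± 0.10, 0.00143) fell. In the PAD4 set limma called 0 of 15 (2 at an unadjusted p under 0.05), and the lowest p values were those of the chaperone gene Hspa5 (-0.94 ± 0.32, adjusted p = 0.0511) and of Calr (0.88 ± 0.34, 0.0786).

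Relatives of the 10 genes that share a family but not their place in the response also moved both ways. Their counts in the IL-33 set were near the shares of all genes (16.8% lower and 22.2% higher). Of 14, 3 were lower and 3 higher in the IL-33 set and 3 lower and 1 higher in the PAD4 set. The transcription factor gene Cebpd fell in both (-1.84 ± 0.31 SE, limma adjusted p = 0.000702, in the PAD4 set and -2.61 ± 0.17, 5.96e-05, in the IL-33 set), as did Trib1 (-0.79 ± 0.24, 0.0281, and -1.24 ± 0.16, 0.000959). Batf3 fell in the PAD4 set (-0.77 ± 0.20, 0.0102), and Trib2 (0.70 ± 0.09, 0.00107) and the argininosuccinate synthase gene Ass1 (0.94 ± 0.16, 0.00282) rose in the IL-33 set. The falls of Trib1 and Batf3 in the PAD4 set did not pass without wild-type library 1 (0.0571 and 0.0561), wild-type library 3 (0.0925 and 0.0527) or knockout library 3 (0.143 and 0.0505), nor did that of Trib1 without wild-type library 2 (0.0707) or knockout library 1 (0.0703). Chac2, the constitutive relative of Chac1, was at 2.83, 4.55 and 5.05 FPKM for wild-type kidneys and 17.1, 6.05 and 12.2 FPKM for PAD4 knockout kidneys, a rise of 1.24 ± 0.32 (adjusted p = 0.0116), so that its knockout libraries lay above all wild-type libraries while those of Chac1 lay below. This rise did not pass without wild-type library 1 (0.124). Chac2 also rose in the IL-33 set, from 3.06, 9.59 and 6.69 FPKM to 21.8, 19.1 and 20.7 FPKM (1.64 ± 0.31, adjusted p = 0.00495).

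**Figure D4:**
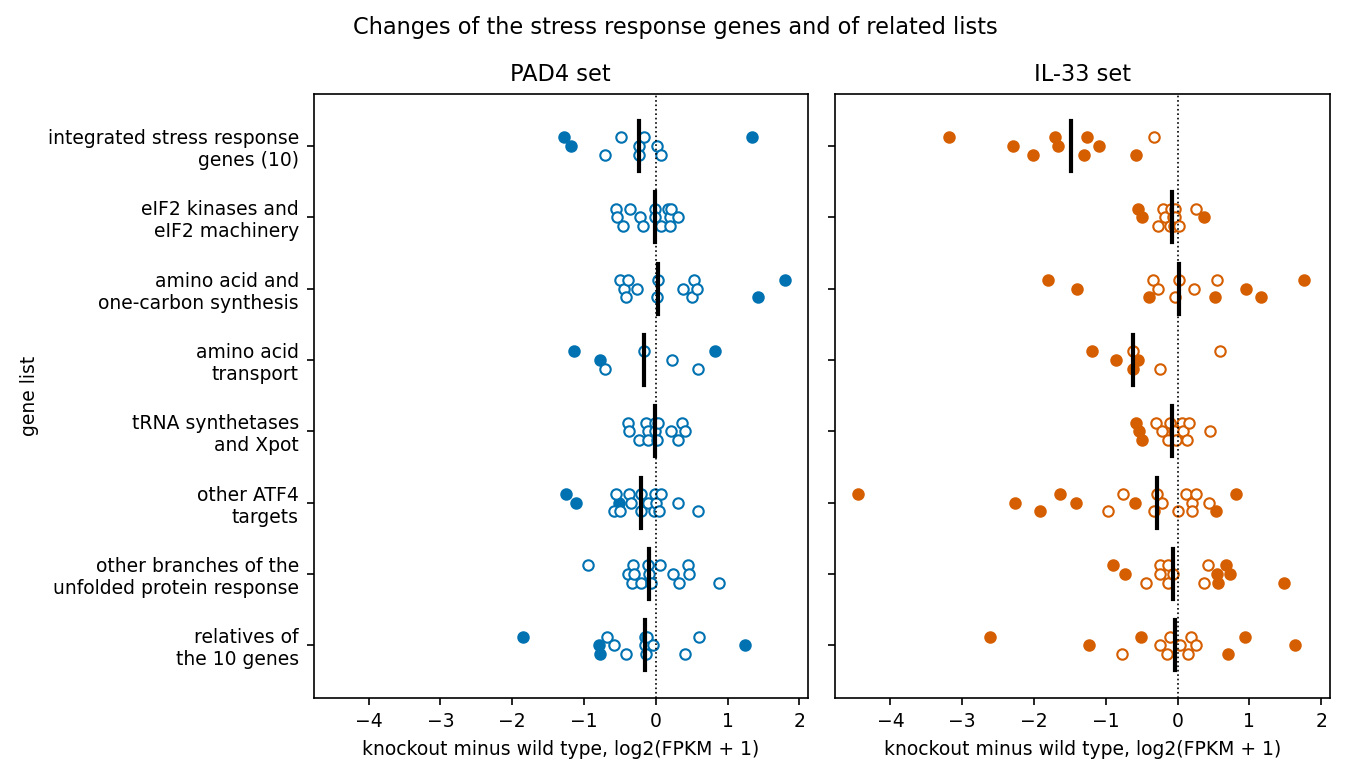
Change of each tested gene (knockout minus wild type, log2(FPKM + 1) scale) in the 10 stress response genes and in 7 related lists, by set; filled points had an adjusted p under 0.05 and black bars are list medians. In the IL-33 set the 10 genes have a median of -1.49, while amino acid transport is at -0.62 and the other lists lie between -0.28 and 0.014.

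Injury genes of the renal tubule moved in the same libraries. Of 11, 9 were lower and 0 higher in the IL-33 set and 6 lower and 1 higher in the PAD4 set. Havcr1, which encodes the injury marker KIM-1, measured 84.0, 78.6 and 161 FPKM in the wild-type kidneys of the IL-33 set and 26.9, 12.0 and 7.45 FPKM in its knockout kidneys (-2.83 ± 0.44 SE, limma adjusted p = 0.0021). Havcr1 levels of the PAD4 set were 24.6, 10.9 and 25.9 FPKM for wild-type kidneys and 0.885, 46.9 and 1.15 FPKM for knockout kidneys (adjusted p = 0.114). PAD4 knockout library 2, the knockout library nearest to wild type for Atf3, had the highest Havcr1 of its set. By list medians it was also the knockout library nearest to wild type for the cell type markers. Its median was 21.5 FPKM for colon (4.11 and 10.3 FPKM in knockout libraries 1 and 3) and 8.18 FPKM for proximal tubule (18.0 and 15.3 FPKM). By sums this did not hold for the colon, lung and podocyte lists. Lcn2, which encodes the injury marker NGAL, was at 230, 291 and 608 FPKM against 16.5, 24.2 and 16.6 FPKM in the IL-33 set (-4.12 ± 0.34, 0.000144) and did not pass in the PAD4 set (-0.90 ± 0.37, 0.102). The cell cycle inhibitor gene Cdkn1a fell in both sets (-1.84 ± 0.29, 0.000434, in the PAD4 set and -3.65 ± 0.26, 8.86e-05, in the IL-33 set), as did the fibrinogen chain gene Fgg (-2.01 ± 0.34, 0.0007, and -3.06 ± 0.20, 5.67e-05). Both sets also had falls of Fgb (-1.70 ± 0.27, 0.000482, and -2.69 ± 0.24, 0.000194) and Krt20 (-2.74 ± 0.50, 0.00126, and -6.97 ± 0.58, 0.000149), and the fall of Krt20 in the PAD4 set did not pass without wild-type library 1 (0.0589). Krt20 is also on the list of colon markers, 16 of 20 of which fell in the PAD4 set. There its fall cannot be told apart from that of the colon markers. Clu, which encodes clusterin, fell in the IL-33 set (-1.68 ± 0.08, 2.21e-05) and was the injury gene that rose in the PAD4 set (1.19 ± 0.38, 0.037). That rise of Clu did not pass without wild-type library 1, 2 or 3 (0.162, 0.074 and 0.106), without knockout library 2 (0.152), under median-of-ratios scaling (0.0811) or quantile normalization (0.19), or in a fit blocked on replicate number (0.0797). The part of the extent of injury in the changes of the stress response genes was not tested.

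Among 10737 genes with a mean of at least 1 FPKM in both tables, the 5 most like the average of the 10 by Pearson's r over the 12 libraries were Fam124a (0.946), Hspb8, a small heat shock protein gene (0.944), Mmp7, a matrix protease gene (0.940), Paox, a polyamine oxidase gene (0.940), and Mboat1, an acyltransferase gene (0.940). All libraries share their genotype groups, so any gene that is lower in both knockouts tends to a high r.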

How the data were processed

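The authors deposited 2 tables of FPKM values, 1 per set, whose columns are libraries, per the file headers, and 0 of their 12 columns were without a sample. In the IL-33 table the columns of the wild type name the injury model and a number but no genotype. Per the labels' protocols, poly(A) RNA went into strand-specific libraries. The submitters' processing notes list StringTie, HISAT2, cutadapt, FastQC, edgeR and DESeq2 without order or version. Neither build nor annotation is given in the sources used here.

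Symbols came from GENCODE M21 and promoters from RefSeq (GRCm38.p6). The tests used limma 3.58.1 (lmFit, eBayes with trend) in R 4.3.3 on log2(FPKM + 1), separately by table, for genes whose mean FPKM was 0.5 or more. All 10 genes passed that filter in both tables. Tests are two-sided, with Benjamini-Hochberg adjustment over all genes and a threshold of 0.05. SD is over 3 libraries, and SE is limma's. The scripts were tested on simulated data.

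The 10 genes, the lists and the marker lists were chosen with earlier results of these data known. From each related list, up to 4 genes with the lowest p among those that passed in a set were named, or 2 where none passed. Eif2ak3, Slc7a11, Muc2, Sftpb and the marker genes Guca2b, Mep1a, Napsa and Krt20 were named after their values were seen, and Padi4, Il33, Havcr1 and Lcn2 by rule. The replicate numbers are not known to pair animals, so numbers were not used as pairs. Other settings were pseudocounts of 0.1 and 0.5, a mean FPKM of at least 2 or no filter, other scalings (median of ratios, TPM, without mitochondrial genes, quantile), no trend, array weights, a replicate block, the marker score as covariate and each library left out.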

Additional observations from a re-analysis of the deposited data

Results flagged for a closer look

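The change in the IL-33 set differed from that in the PAD4 set, by a limma contrast over all 12 libraries, for 6 of the 10 genes. The differences (IL-33 set minus PAD4 set, log2(FPKM + 1) scale, ± SE) were -2.44 ± 0.32 for Atf5, -2.13 ± 0.36 for Trib3, -1.90 ± 0.55 for Atf3, -1.78 ± 0.46 for Chac1, -1.74 ± 0.36 for Ddit3 and -0.96 ± 0.24 for Ddit4. For Atf5, all 3 knockout libraries were above wild type in the PAD4 set and all 3 below it in the IL-33 set. The deleted gene, the batch and the other differences between the sets cannot be told apart here.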

How the results depend on the processing

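Of the 10 genes, 3 were called in the PAD4 set, 9 in the IL-33 set and 6 for the difference between the sets. With no filter on level, 0 were called by limma in the PAD4 set (4 at an unadjusted p under 0.05). With the colon and lung marker score as covariate, 0, 1 and 0 were called (0, 5 and 1 at an unadjusted p under 0.05). In the IL-33 set that score mainly follows Krt20. Leaving out 1 library at a time gave 1 to 3 in the PAD4 set (1 without wild-type library 1), 8 to 9 in the IL-33 set and 3 to 7 for the difference (3 without IL-33 knockout library 3). A mean FPKM of at least 2 left 8 of the 10 genes to test in the PAD4 set. The replicate numbers are not known to pair the animals. Deviations of same-numbered libraries correlated at -0.016, -0.11 and -0.15 in the PAD4 set and at -0.014, 0.13 and -0.0017 in the IL-33 set. With 3 libraries per group such values cannot exclude a pairing. With the replicate number as a block, 3, 9 and 5 of the 10 were called, and 1984, 5336 and 1819 of all genes.

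Directions turned mainly where the change was near 0 or with the marker score. In the PAD4 set the score gave 0.58 for Atf3, 0.040 for Atf4, 0.43 for Trib3, -0.13 for Sesn2 and 0.067 for Asns. It gave 1.29 for Asns in the IL-33 set and 1.22 for the difference in Asns. Ddit3 in the PAD4 set was at -0.0069 scaled without mitochondrial genes and at -0.15 with quantile normalization. Sesn2 there was at -0.025 with quantile normalization and -0.062 with array weights, and Trib3 at 0.040 with array weights. Leaving out 1 library gave -0.20 to 0.17 for Ddit3, -0.28 to 0.062 for Trib3 and -0.11 to 0.17 for Sesn2 in the PAD4 set, and -0.33 to 0.075 for Ppp1r15a and -0.35 to 0.16 for Asns in the difference. The difference lost its call without each of 8 single libraries for Atf3 (adjusted p of 0.0556 to 0.0842), and for Ddit4 under TPM scaling (0.0776), the block (0.102) and without IL-33 knockout library 3 (0.0621). Chac1 lost it with no filter (0.0656) and without that library (0.051), and Atf3 with no filter (0.0983). The difference in Atf4 gained a call under median-of-ratios scaling (0.0341), array weights (0.0352) and without PAD4 knockout library 3 (0.046), and its change in the PAD4 set under quantile normalization (0.0364). The cause of these shifts was not tested.

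Counts over all genes moved more. The 2473 calls of the PAD4 set became 0 with no filter (6053 at an unadjusted p under 0.05), 5206 with array weights, 74 with the marker score, 1064 without wild-type library 1 and 1323 without wild-type library 3. The 5671 of the IL-33 set became 213 with the score and 3626 and 3687 without knockout libraries 1 and 3. The 1615 of the difference (804 higher, 811 lower) became 1011 at a mean FPKM of at least 2, 3101 under median-of-ratios scaling (1226 higher, 1875 lower), 3135 under quantile normalization, 3525 with array weights, 25 with the score and 1055 without IL-33 knockout library 1. FPKM does not carry depth, so the precision of low levels, such as Chac1 and Trib3, is unknown.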
